A study of Mus musculus with 32 samples.

Results

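The liver data compare whole-body *Gpr146* knockout mice with wild-type littermates, 4 mice of each genotype with 1 array per mouse, so 8 of the 32 arrays of the series. All were male mice on the C57BL/6J background, 20 weeks old, fed HFD for 3 months and fasted overnight before the liver was taken, and the knockout, made with CRISPR/Cas9 in the germ line, is present in every tissue and from conception. Both groups share the diet and the fast, so there is no chow-fed or fed liver to set the values against. The Affymetrix Mouse Gene 2.1 ST array measures each gene with probes spread along its exons, and 100 ng of RNA was labelled per mouse. The comparison covers every entry of the liver table that carries a gene symbol, which were 24646 of 24648. Values are log2 expression values, so a difference of 1 is a 2-fold change of signal. Probes differ between genes, so levels of different genes are set side by side only as a rough guide to signal, as for marker lists.

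GPR146 is an orphan G protein-coupled receptor whose locus is tied to plasma cholesterol. A fatty liver is built from hepatocytes loaded with lipid droplets, and around them lie the cells of the sinusoids: the fenestrated endothelium that lets plasma reach the hepatocyte, the stellate cells that store vitamin A and make matrix, and the Kupffer cells, the resident macrophages. PPARα drives fatty acid oxidation during fasting, PPARγ drives lipid storage genes when the liver becomes steatotic, and SREBP2 raises cholesterol synthesis when sterols run low. Bile acid synthesis is the main route by which the liver disposes of cholesterol.

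The arrays looked alike overall. Pairs of arrays correlated with r between 0.986 and 0.993 over all genes, and the array medians lay between 3.00 and 3.06. The 10 hepatocyte markers averaged between 10.3 and 10.5 in every mouse, whereas kidney and pancreas markers, which would betray neighbouring tissue, averaged between 2.32 and 2.78. Erythroid markers, a gauge of blood, averaged 3.71 to 3.89 in wild-type mice and 3.58 to 3.75 in knockout mice. Knockout replicate 2 lay nearer to the wild-type mice than the other knockout mice did for the genes of sinusoidal cells, which matters for several counts below and is given with them. The titles of the 4 knockout samples name the wild type, but their genotype, source and description fields all give the knockout, and they were used as such.

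The targeted gene followed the genotype. *Gpr146* read 6.17, 6.32, 6.21 and 6.19 in wild-type mice, against 4.50, 4.26, 4.63 and 4.41 in knockout mice. The groups were far apart, with a log2 fold change of -1.77 (SE 0.09, limma adjusted p = 6.55e-06). The next gene along chromosome 5 in the GRCm38.p6 annotation, *C130050O18Rik*, which encodes another predicted G protein-coupled receptor, read 3.77, 3.56, 3.94 and 3.54 in wild-type livers and 7.51, 7.32, 6.95 and 7.24 in knockout livers. That is an 11.7-fold higher signal, with a log2 fold change of 3.55 (SE 0.13, adjusted p = 3.53e-07). It was the largest rise of all genes past the threshold. The other 5 genes among the 3 nearest on each side did not pass the test, with changes between -0.47 for *Zfand2a* and 0.25 for *Gper1* (listed as Gpr30).

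Across the table, limma, a linear model per gene with variances moderated over genes, called 163 genes at a Benjamini-Hochberg adjusted p below 0.05, or 0.661% of those tested. Of these, 40 (0.162% of all genes) were higher and 123 (0.499%) were lower in the knockout. After quantile normalization of the deposited values the split was 54 higher and 102 lower. Falls were also deeper: 37 genes fell and 6 rose by at least 1 log2 unit. In all 163 the genotypes did not overlap, which over all genes held for 3.62% in the upward and 4.16% in the downward direction. For any such gene an exact permutation test gives p = 0.029 (two-sided), the smallest that 4 mice against 4 allow. The 163 genes were picked by limma on the same values, so their lack of overlap and this p add no support. The count depends on single mice: leaving out knockout replicate 2 raised it to 300, whereas it dropped to 44 and 69 when knockout replicates 4 and 1 were left out, and to 41, 81 and 89 when this was done for wild-type replicates 3, 2 and 4. Of the 61 called genes that are named here, 20 were called whichever array was left out, among them *Gpr146*, *C130050O18Rik*, *Hspa1b*, *Bag3*, *Dnajb1*, *Clec4g*, *Fcgr2b*, *Igfbp7*, *Dnase1l3*, *P4ha1*, *Vnn1*, *Pex11a*, *Acss3*, *Me1*, *Selenbp2*, *Gpr110* and *Emp2*, and the other 41 lost the call without at least 1 array while keeping their direction.

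**Figure D1:**
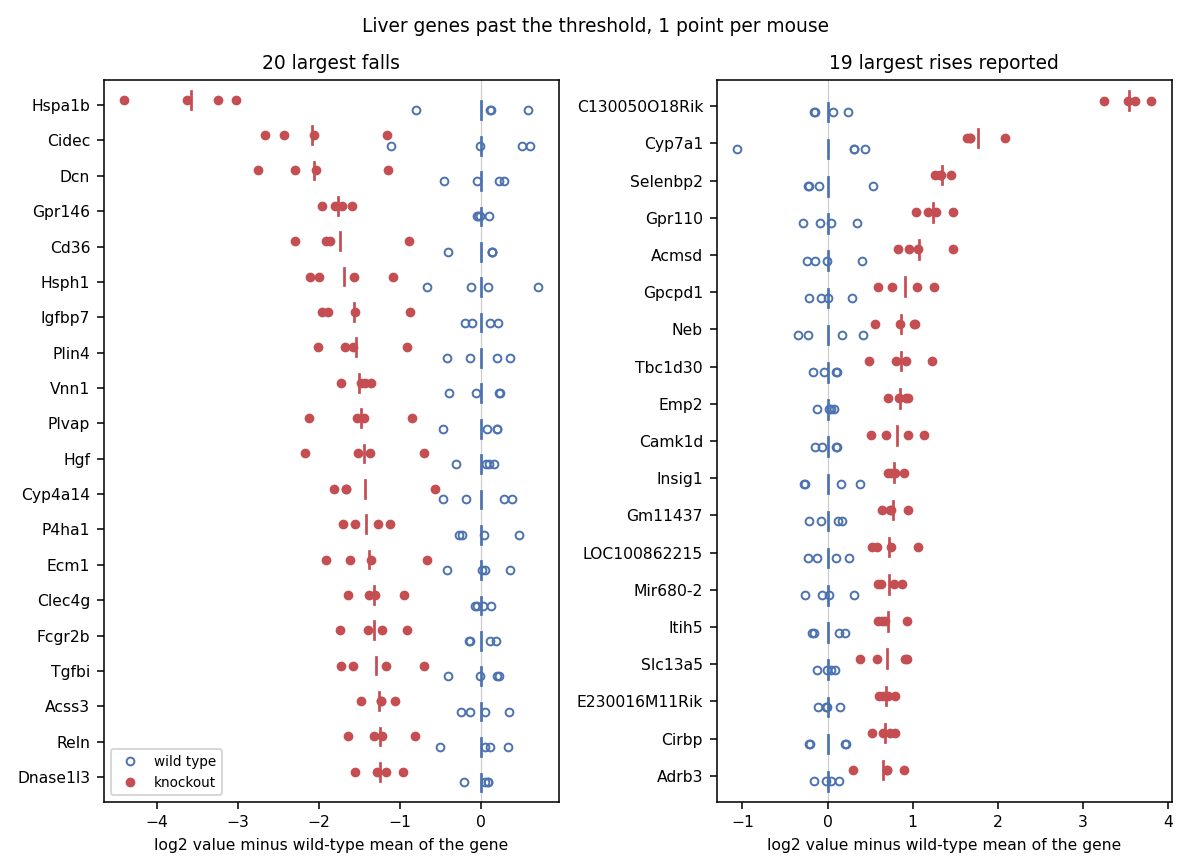
Log2 value of each mouse minus the wild-type mean of the gene, for the 20 largest falls and 19 of the 20 largest rises among genes past the threshold (open circles, wild type; filled circles, knockout; bars, group means; 4 mice each). *Hspa1b* lies lowest at -3.58 and *C130050O18Rik* highest at 3.55. Genes were picked among those without overlap, so in every gene shown the 4 knockout points lie to one side of the 4 wild-type points.

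The 20 largest falls past the threshold, *Gpr146* among them, held the inducible heat shock proteins *Hspa1b* (-3.58) and *Hsph1* (-1.69), the lipid droplet and fatty acid uptake genes *Cidec* (-2.08), *Cd36* (-1.74) and *Plin4* (-1.55), and the fatty acid-responsive genes *Vnn1* (-1.50), *Cyp4a14* (-1.43) and *Acss3* (-1.25). The others were the proteoglycan *Dcn* (-2.06), *Igfbp7* (-1.57), the diaphragm protein gene *Plvap* (-1.49), hepatocyte growth factor *Hgf* (-1.44), *Ecm1* (-1.39), *Clec4g* (-1.32), the inhibitory Fc receptor *Fcgr2b* (-1.32), *Tgfbi* (-1.30), *Reln* (-1.25) and the secreted DNase *Dnase1l3* (-1.25). *P4ha1*, a collagen prolyl hydroxylase, fell by 1.41. All of these passed the test, with adjusted p between 0.00167 and 0.0427.

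Among the rises, *C130050O18Rik* was followed by *Cyp7a1* (1.77), the rate-limiting enzyme of bile acid synthesis, *Selenbp2* (1.34), the adhesion receptor *Gpr110* (1.24) and *Acmsd* (1.08), an enzyme that turns tryptophan breakdown away from NAD synthesis. *Gpcpd1* (0.91), *Neb* (0.86), *Tbc1d30* (0.86), *Emp2* (0.86), *Camk1d* (0.82) and the sterol sensor *Insig1* (0.79) followed. *Gm11437*, *LOC100862215*, the microRNA entry *Mir680-2*, *Itih5*, the citrate transporter *Slc13a5*, *E230016M11Rik*, the cold-induced RNA-binding protein *Cirbp* and the β3-adrenergic receptor *Adrb3* rose by 0.65 to 0.77. Their adjusted p lay between 3.53e-07 and 0.047.

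Of 12 markers of sinusoidal endothelium, 7 fell past the test and all 12 had a negative change, with a median of -0.78 against 0.01 over all genes. Called were the scavenger lectin *Clec4g*, *Fcgr2b*, the iron-sensing ligand *Bmp2* (-1.09), the junction protein *Cdh5* (-1.08), *Oit3* (-0.97), the VEGF receptor *Kdr* (-0.86) and *Gpr182* (-0.69). *Clec4g* read 6.63, 6.66, 6.83 and 6.73 in wild-type livers and 5.06, 5.75, 5.40 and 5.33 in knockout livers. The 4 wild-type mice lay close together and every knockout mouse was well below them (SE 0.13, adjusted p = 0.00167). *Fcgr2b* read 5.54, 5.88, 5.80 and 5.55 against 3.95, 4.78, 4.47 and 4.30 (SE 0.16, adjusted p = 0.00565), again with a clear gap. In both genes knockout replicate 2 was the highest of the knockout livers. Without that mouse 11 of the 12 markers were called, and the count was 2 when either wild-type replicate 3 or knockout replicate 4 was left out and 4 when wild-type replicate 4 was, while the median change stayed between -0.91 and -0.66 over all 8 such fits. After quantile normalization 5 were called, and *Cdh5* and *Kdr* lost the call.

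Of 12 stellate cell markers, 5 fell past the test, namely *Dcn*, *Hgf*, *Ecm1*, *Reln* and *Lrat* (-0.77), the enzyme that makes the retinyl esters these cells store, and all 12 had a negative change with a median of -0.73. *Dcn* read 7.84, 8.17, 7.43 and 8.11 in wild-type livers and 5.14, 6.74, 5.59 and 5.85 in knockout livers (SE 0.29, adjusted p = 0.0124). Knockout replicate 2 again lay closest to the wild type, but the groups did not overlap. The count was 7 without that mouse, 0 without knockout replicate 4 and 1 to 3 without any other, and the median stayed between -0.81 and -0.61.

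The Kupffer cell markers were on average below every wild-type mouse in 3 of the 4 knockout mice. All 13 had a negative change, with a median of -0.87, but only the complement gene *C1qc* passed the test (-0.61, SE 0.12, adjusted p = 0.0484), a call lost after quantile normalization. The complement receptor *Vsig4* read 6.17, 5.42, 6.34 and 5.48 in wild-type livers and 3.31, 5.25, 3.97 and 3.92 in knockout livers, a change of -1.74 with an adjusted p of 0.0546. *Folr2* changed by -0.97 (adjusted p = 0.0595). The mean of the list was 4.91 to 5.81 in wild-type mice, 5.04 in knockout replicate 2 and 3.89 to 4.20 in the other 3 knockout mice. Without knockout replicate 2, 8 of the 13 were called, the median was -1.10, and leaving out any other mouse called 0. Among 13 markers of recruited and lipid-associated macrophages 0 were called and the median was 0.00, with *Trem2* at 0.32 (adjusted p = 0.282) and *Spp1* at 0.60 (adjusted p = 0.285). *Lyz2*, which Kupffer cells also express, changed by -1.28 (adjusted p = 0.126).

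**Figure D2:**
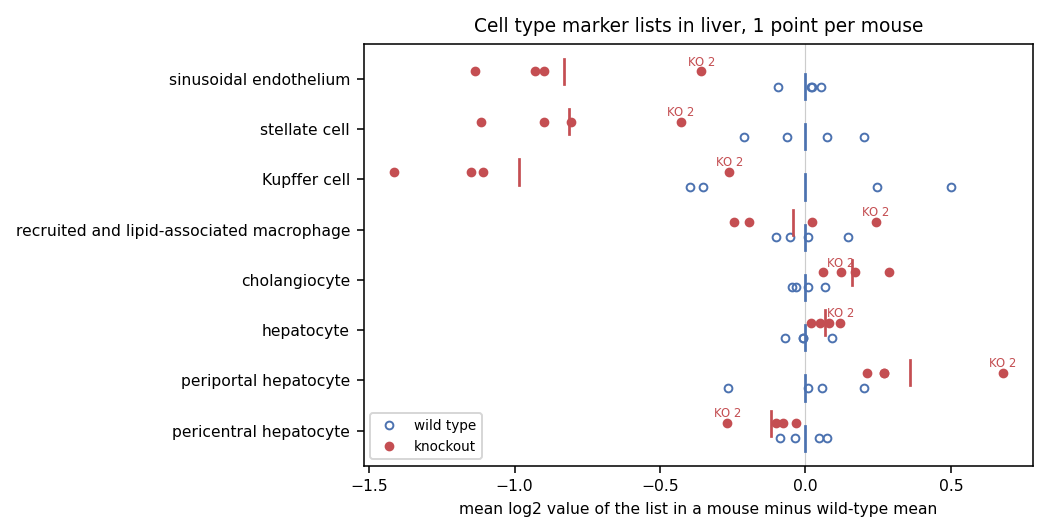
Mean log2 value of each marker list in each mouse minus the wild-type mean (open circles, wild type; filled circles, knockout; bars, group means; 4 mice each; KO 2 marks knockout replicate 2). Endothelial and stellate means lie below the wild type in all 4 knockout mice, the Kupffer mean of knockout replicate 2 lies within the wild-type range, and the hepatocyte means of the genotypes overlap.

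In whole liver, fewer cells of a type and less RNA per cell cannot be told apart. Hepatocyte markers did not pass the test (0 of 10, median 0.04), nor did cholangiocyte (0 of 9, median 0.15), T and NK cell (0 of 12, 0.01), B cell (0 of 8, 0.07), neutrophil (0 of 9, -0.04) or erythroid markers (0 of 6, -0.17). The T and NK cell, B cell and neutrophil lists averaged only 2.01 to 2.84 in a mouse. Kidney and pancreas markers averaged 2.32 to 2.78. At such levels the lack of calls cannot show that lymphocytes or neutrophils were unchanged. The cholangiocyte list (2.98 to 3.31) and the list of recruited and lipid-associated macrophages (3.21 to 3.70) were also low on average in a mouse. Their lack of calls cannot show that these cells were unchanged either. Adipocyte markers gave 1 rise, *Adrb3*, and 1 fall, the secreted protease *Cfd* (-1.12, adjusted p = 0.0242), of 9, with a median of -0.07. Pancreas (9) and kidney (7) markers had 0 calls. Along the lobule, 0 of 12 pericentral markers were called (median -0.14) and 0 of 12 periportal markers, of which 8 had a positive change (median 0.44).

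Of 47 matrix genes 5 fell past the test, and whether kinds of matrix gene differ was not tested. Of 15 proteoglycans and matrix glycoproteins, 4 fell past the test, *Dcn*, *Ecm1*, *Tgfbi* and *Lum* (-0.83, adjusted p = 0.0212), and the median was -0.61. *Lum* averaged only 2.69 in wild-type and 1.86 in knockout livers, below the median of every array. Of 13 collagens 0 were called, with a median of -0.06. *Col1a1* changed by -0.18 (SE 0.19, adjusted p = 0.744) and *Col1a2* by -0.05 (SE 0.09, adjusted p = 0.865). *Col1a2* averaged only 2.81 in wild-type and 2.76 in knockout livers. At this level the lack of a call cannot show that it was unchanged. Among 19 remodelling and TGF-β genes, *Smad7*, the feedback inhibitor of TGF-β receptors, fell by 0.66 (adjusted p = 0.0371, lost after quantile normalization), while *Tgfb1* changed by -0.98 with an adjusted p of 0.0533 although its groups did not overlap. *Bgn* changed by -0.95 (adjusted p = 0.1). Of the 5 calls, *Dcn* and *Ecm1* also stand among the stellate markers above. The part of the sinusoidal cell markers in the matrix result was not tested. The count was 10 without knockout replicate 2, 0 without knockout replicate 4 and 1 or 2 without any other.

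**Figure D3:**
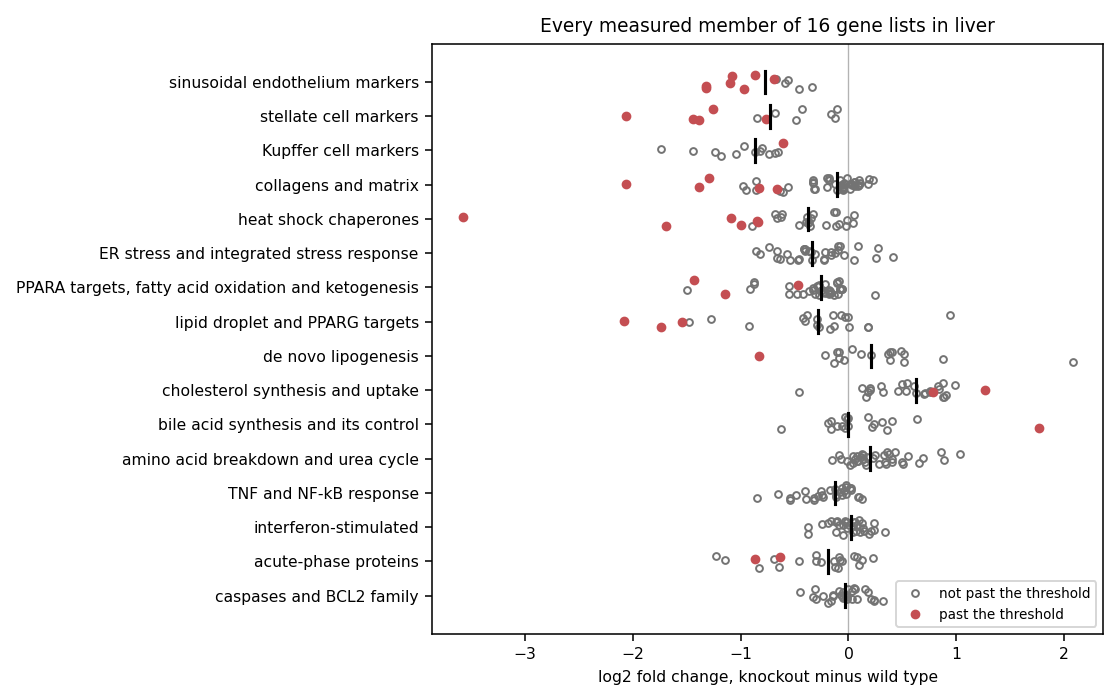
Log2 fold change of every measured member of 16 gene lists (filled, adjusted p below 0.05; open, not past it; black bar, median of the list; 4 mice per genotype). The sinusoidal and stellate lists lie wholly below 0, and the cholesterol list lies above 0 but for 1 gene. The TNF and NF-κB, interferon and caspase lists hold no filled point, and the acute-phase list holds 2.

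Of 22 lipid droplet and PPARγ target genes, 3 fell past the test and 18 had a negative change (median -0.28). *Cidec*, whose product lets lipid droplets fuse and grow, read 5.44, 7.16, 6.54 and 7.06 in wild-type livers and 4.11, 5.39, 3.89 and 4.48 in knockout livers (SE 0.38, adjusted p = 0.0387). Wild-type replicate 1 and knockout replicate 2 all but touched. *Cd36*, a fatty acid transporter, read 7.57, 8.11, 8.11 and 8.11 against 6.12, 7.09, 5.68 and 6.06 (SE 0.25, adjusted p = 0.0144), and here every knockout mouse was clear of the wild type. *Plin4*, a droplet coat gene, read 5.78, 6.12, 6.28 and 5.50 against 3.90, 5.01, 4.24 and 4.34 (SE 0.22, adjusted p = 0.0144). *Pparg* itself changed by -0.92 (SE 0.19, adjusted p = 0.0624), without overlap, and *Cidea* by -1.27 (SE 0.35, adjusted p = 0.139) with overlap. The count of 3 ranged from 0, without wild-type replicate 3 or knockout replicate 4, to 5 without wild-type replicate 1. *Cd36* is also made by endothelium and macrophages, whose markers moved in the same mice, and their part was not tested.

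Of 39 PPARα target and fatty acid oxidation genes, 38 had a negative change (median -0.26), all 17 of mitochondrial oxidation among them, and 13 lay lower in every knockout mouse, against 4.16% of all genes. Only 3 passed the test: the fatty acid ω-hydroxylase *Cyp4a14*, the peroxisome proliferation factor *Pex11a* and the mitochondrial isomerase *Eci1* (-0.47, adjusted p = 0.0396). The count was 4 without knockout replicate 2, 2 without wild-type replicate 1 or 2 and 1 without any other mouse. *Pex11a* was called in every such fit, *Cyp4a14* only without knockout replicate 2, and *Eci1* in 2 of 8 and not after quantile normalization. *Pex11a* read 7.39, 7.35, 7.65 and 7.36 in wild-type livers and 6.45, 6.24, 6.46 and 6.02 in knockout livers, a change of -1.14 (SE 0.11, adjusted p = 0.00173), and no mouse came near the other group. *Cyp4a14* read 9.93, 9.65, 10.50 and 10.41 against 8.45, 9.56, 8.30 and 8.46 (SE 0.27, adjusted p = 0.0427), where knockout replicate 2 was close to the lowest wild-type mouse. *Acadl* changed by -0.26 (SE 0.07, adjusted p = 0.132) and the gatekeeper of mitochondrial uptake *Cpt1a* by -0.10 (SE 0.13, adjusted p = 0.798). *Vnn1*, not on the list but known to respond to PPARα, read 7.80, 8.14, 8.43 and 8.42 against 6.46, 6.84, 6.77 and 6.71 (SE 0.14, adjusted p = 0.00167).

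Of 19 lipogenic genes 1 was called, malic enzyme *Me1*, which makes NADPH for fat synthesis and fell by 0.83 (SE 0.11, adjusted p = 0.0109). The median of the list was 0.21. *Fasn* changed by 0.88 (SE 0.20, adjusted p = 0.0825), *Acly* by 0.51 (adjusted p = 0.109), *Acaca* by 0.38 (adjusted p = 0.169) and *Elovl6* by 0.38 (adjusted p = 0.234). *Scd1*, picked after its values were seen, read 9.95, 7.53, 9.52 and 7.54 in wild-type livers and 11.01, 11.05, 9.80 and 11.01 in knockout livers (2.08, SE 0.53, adjusted p = 0.113). The wild-type mice lay in 2 pairs far apart and the groups overlapped. In triglyceride synthesis and lipolysis, monoglyceride lipase *Mgll* fell by 0.50 (adjusted p = 0.0371, lost after quantile normalization) and the other 18 of 19 genes were not called (median -0.05).

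**Figure D4:**
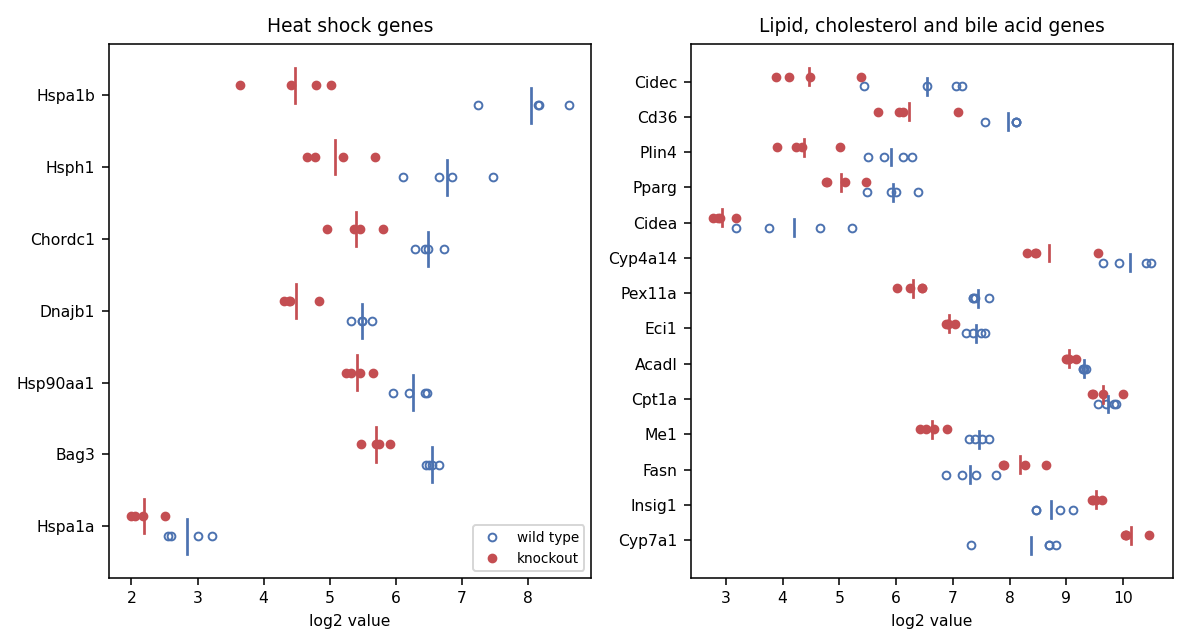
Log2 values of heat shock genes (left) and of lipid, cholesterol and bile acid genes (right) in each mouse (open circles, wild type; filled circles, knockout; bars, group means; 4 mice each). *Hspa1b* drops from a mean of 8.05 to 4.47, *Pex11a* from 7.44 to 6.30, and *Cyp7a1* and *Insig1* lie higher in all 4 knockout mice.

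Cholesterol genes had positive changes almost throughout. Of 27 genes of cholesterol synthesis and uptake, 26 had a positive change, the median was 0.63, and 2 passed the test, one of them *Insig1* and the other not named here. *Insig1*, which SREBP2 induces and which in turn holds SREBP processing back, read 9.12, 8.46, 8.47 and 8.89 in wild-type livers and 9.64, 9.47, 9.52 and 9.45 in knockout livers (0.79, SE 0.14, adjusted p = 0.0345). The knockout mice lay close together and all above the wild type. Its call held only without wild-type replicate 1 or knockout replicate 2 when 1 array was left out. All 20 synthesis enzymes were positive, with a median of 0.71, but their spread between mice was wide: their mean was 6.03 to 6.84 in wild-type and 6.58 to 7.46 in knockout mice, which overlap. *Tm7sf2* changed by 0.70 (SE 0.18, adjusted p = 0.109).

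Among 19 genes of bile acid synthesis and its control, *Cyp7a1* was called. It read 8.69, 7.32, 8.69 and 8.83 in wild-type livers and 10.05, 10.46, 10.05 and 10.03 in knockout livers. Every knockout mouse stood more than 1 log2 unit above every wild-type mouse (1.77, SE 0.28, adjusted p = 0.0215). The other 18 genes of the list were not called, and the median was 0.00. *Cyp27a1*, which opens the alternative pathway, changed by 0.36 (adjusted p = 0.155). Among 14 bile acid transporters, 1 was called, the basolateral exporter *Abcc3*, which fell by 0.53 (SE 0.09, adjusted p = 0.0288). None of 22 genes of VLDL assembly and apolipoproteins passed the test (median -0.02). The call of *Cyp7a1* was lost without wild-type replicate 3, knockout replicate 1 or knockout replicate 4, with adjusted p up to 0.0714. It was also lost with a trended and robust prior.

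Of 38 genes of amino acid breakdown and the urea cycle, 34 had a positive change, 11 lay higher in every knockout mouse, against 3.62% of all genes, and 0 were called (median 0.20). All 6 urea cycle genes were positive, with a median of 0.45. *Cps1*, which commits ammonia to the cycle, read 10.92, 10.37, 10.66 and 10.50 in wild-type livers and 11.13, 11.16, 11.07 and 11.10 in knockout livers (0.50, SE 0.11, adjusted p = 0.0658). *Asl* changed by 0.56 (adjusted p = 0.1), *Arg1* by 0.41 (adjusted p = 0.105), the glutaminase *Gls2* by 0.86 (adjusted p = 0.0976) and the histidine lyase *Hal* by 0.65 (adjusted p = 0.113), all without overlap. *Arg1*, *Gls2* and *Hal* are also periportal markers. None of 30 genes of glucose, glycogen and the pentose phosphate pathway were called (median -0.05).

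The largest fall past the threshold belonged to a heat shock gene. Of 28 cytosolic and mitochondrial chaperone genes, 6 fell past the test, 26 had a negative change and 15 lay lower in every knockout mouse, against 4.16% of all genes, with a median of -0.38. *Hspa1b*, the stress-inducible HSP70, read 8.17, 7.24, 8.15 and 8.62 in wild-type livers and 4.42, 4.80, 5.02 and 3.64 in knockout livers, an 11.9-fold lower signal (SE 0.32, adjusted p = 0.00167). The lowest wild-type mouse was still more than 2 log2 units above the highest knockout mouse. *Hsph1*, the HSP110 exchange factor, read 6.85, 6.10, 6.65 and 7.47 against 5.20, 4.77, 5.68 and 4.65 (SE 0.28, adjusted p = 0.025). The co-chaperones *Chordc1* (-1.09) and *Bag3* (-0.84), the HSP40 gene *Dnajb1* and the inducible HSP90 gene *Hsp90aa1* (-0.85) fell as well, with adjusted p between 0.00513 and 0.0155. *Dnajb1* read 5.48, 5.49, 5.65 and 5.32 in wild-type livers against 4.40, 4.31, 4.84 and 4.39 in knockout livers. *Hspa1a*, a near copy of *Hspa1b* whose RNA the probes may not separate, changed by -0.66 (SE 0.16, adjusted p = 0.0984). Knockout replicate 2 did not stand apart here, at 4.80 for *Hspa1b* between the other knockout mice. Between 3 and 7 of the 28 genes were called when 1 array was left out, the fewest without wild-type replicate 3.

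Heat shock factor binds arrays of inverted GAA units. The form with 3 units, GAANNTTCNNGAA or TTCNNGAANNTTC, was searched on both strands of the RefSeq promoters (GRCm38.p6, 250 bases before to 50 after each start). It was found for 4 of the 22 heat shock genes that have a promoter entry, *Chordc1*, *Hsph1*, *Hspd1* and *Hspe1*, and for 0.663% of all 27018 genes with an entry. *Hspd1* and *Hspe1* share their stretch and were not called. The 2 called genes with a match are shown because they are the falls whose promoters hold the strict form, with the match in capitals (3 overlapping matches in *Chordc1*), and *Hspa1b* because it fell most, although its window holds no match to these letters.
Hsph1 (the second of its 2 annotated starts), chr5:149636266-149636565, minus strand: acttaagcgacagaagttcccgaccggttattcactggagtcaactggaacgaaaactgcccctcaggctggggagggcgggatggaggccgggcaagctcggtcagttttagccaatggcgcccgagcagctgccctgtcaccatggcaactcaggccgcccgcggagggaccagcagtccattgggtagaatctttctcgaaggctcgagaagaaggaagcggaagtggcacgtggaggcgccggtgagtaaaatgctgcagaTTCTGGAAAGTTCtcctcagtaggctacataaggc
Chordc1, chr9:18292017-18292316, plus strand: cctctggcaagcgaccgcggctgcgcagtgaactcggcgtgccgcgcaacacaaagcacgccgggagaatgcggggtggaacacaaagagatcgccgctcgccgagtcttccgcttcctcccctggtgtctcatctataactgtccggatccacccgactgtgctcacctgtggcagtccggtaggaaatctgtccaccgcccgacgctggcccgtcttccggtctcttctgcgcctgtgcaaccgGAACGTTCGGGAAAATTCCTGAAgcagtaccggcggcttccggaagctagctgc
Hspa1b, chr17:34959189-34959488, minus strand: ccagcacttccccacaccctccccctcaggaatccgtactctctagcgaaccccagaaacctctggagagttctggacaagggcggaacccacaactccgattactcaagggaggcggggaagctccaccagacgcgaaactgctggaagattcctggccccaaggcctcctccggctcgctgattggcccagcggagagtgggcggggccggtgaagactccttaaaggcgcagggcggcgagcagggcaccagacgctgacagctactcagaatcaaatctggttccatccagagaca

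The window of *Hspa1b* differs from that of *Hspa1a* at 4 of 300 positions. The PPAR response form, AGGTCA repeated with 1 base between, was found for 0 of 18 genes of the lipid droplet list and for 0.0481% of all genes with an entry. The E-box CACGTG was found for 5 of 17 clock genes and for 8.09% of all genes. These matches describe the windows and say nothing of binding.

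Other stress lists held no call. All 17 chaperones of the endoplasmic reticulum had a negative change (median -0.41), but their mice overlapped, and of 33 genes of ER and integrated stress 0 were called, the nearest being *Ddit3* (-0.54, adjusted p = 0.0508). Among 18 NRF2 targets and metallothioneins 0 were called, with *Hmox1*, the heme-degrading enzyme also strong in Kupffer cells, at -1.62 (SE 0.32, adjusted p = 0.0524) and *Gclc* at -0.62 (adjusted p = 0.127). In 33 immediate-early and ERK feedback genes 0 were called, with *Gadd45g* at -1.68 (adjusted p = 0.054) and the ERK inhibitor *Spred1* at -0.86 (adjusted p = 0.0524).

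Of 30 TNF and NF-κB response genes 0 were called and 24 had a negative change (median -0.12), with *Il1a* at -0.85 (adjusted p = 0.244), *Rel* at -0.66 (adjusted p = 0.25) and *Ccl4* at -0.32 (adjusted p = 0.164). Of 32 interferon-stimulated genes 0 were called (median 0.02), and *Oasl1* changed by 0.34 (adjusted p = 0.247). In 10 genes of MHC class II presentation the median was -0.42 with 0 called, and 5 without knockout replicate 2. *Cd74* read 6.58, 6.54, 6.35 and 6.53 in wild-type livers and 4.71, 6.65, 5.02 and 5.16 in knockout livers (adjusted p = 0.168), so that knockout replicate 2 alone was at the wild-type level. *Ctss* behaved likewise (-1.52, adjusted p = 0.0806). Of 22 acute-phase genes the ferrireductase *Steap4* (-0.87, adjusted p = 0.0215) and *Saa4* (-0.63, adjusted p = 0.0478) fell. The call of *Saa4* was lost without any 1 of the 8 arrays and with array weights, that of *Steap4* without wild-type replicates 2 or 3 or knockout replicate 4, and *Lbp* changed by -0.46 (adjusted p = 0.126). None of 30 caspase and BCL2 genes or 21 cell cycle genes were called. The cell cycle list averaged only 3.10 to 3.22 in a mouse, which limits what its lack of calls can show.

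Of 23 male-biased liver genes 2 were called, beside 0.661% of all genes: *Selenbp2* rose and the arachidonic acid hydroxylase *Cyp4a12a* fell (-0.79, adjusted p = 0.0109). *Selenbp2* read 9.57, 8.94, 8.82 and 8.81 in wild-type livers and 10.35, 10.29, 10.48 and 10.37 in knockout livers (SE 0.15, adjusted p = 0.00427). The monooxygenase-like *Moxd1* changed by 3.22 (SE 0.78, adjusted p = 0.0996), with knockout values from 4.64 to 8.27 and a wild-type mouse at 5.20. None of 24 female-biased genes were called, with *Atp6v0d2* at 1.33 (adjusted p = 0.0595) and *Cyp2b9* at -2.08 (SE 0.70, adjusted p = 0.224), which ran from 2.73 to 7.07 in wild-type mice, nor of 13 growth hormone and IGF genes, with *Igfbp2* at 0.43 (adjusted p = 0.126). Of 33 P450 and nuclear receptor genes 0 were called, with *Cyp3a25* at 1.93 (SE 0.38, adjusted p = 0.0524). Of 20 clock genes 0 were called, with *Nr1d1* at 0.48 (adjusted p = 0.106).

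Fat depots of the same genotypes were fitted each on its own table. Of the 163 liver genes, 36 were called in the same and 16 in the opposite direction in eWAT, together 31.9% beside 15.2% of all genes there. The 163 were picked for a detectable change and include *Gpr146* and *C130050O18Rik*. They were not matched for level with the other genes, so the difference between the shares does not measure a shared response. In iWAT and BAT *Gpr146* itself did not pass the test (-1.55, adjusted p = 0.221, and -1.16, adjusted p = 0.0727), so calls there are not set beside the liver's. The sign of the change was that of the liver for 99 of the 163 genes in eWAT, 116 in iWAT and 114 in BAT. Matching signs were not counted over all genes, so these counts cannot show a shared response. *C130050O18Rik* was higher in eWAT too (3.06, adjusted p = 0.0117). *Hspa1b* (-1.77, adjusted p = 0.0127) and *Hsph1* (-1.24, adjusted p = 0.019) fell in eWAT as in liver. *Plin4* (0.99, adjusted p = 0.012) and *Pparg* (0.61, adjusted p = 0.0203), by contrast, rose in eWAT, and whether liver and fat differ was not tested.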

How the data were processed

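The authors deposited log2 expression values for each tissue, 1 per gene symbol and mouse, already normalized between arrays, but the software, probe summary and normalization are not given in the sources used here. They had averaged several probe sets for 840 genes. From the liver values 2 entries, with a blank name or a name turned into a number, were left out. Groups were taken from the genotype, source and description labels. Knockout was compared with wild type by limma 3.58.1 (R 4.3.3) with Benjamini-Hochberg adjustment over all 24646 genes and a threshold of 0.05, and the procedure was tested on simulated data. The replicates are separate mice, and their number, 4 per group, limits the precision. Members of 41 gene lists (793 of 796 symbols measured, 8 by another name) were counted beside the share of all genes. Genes named are *Gpr146*, its neighbour *C130050O18Rik*, the 20 strongest called changes in each direction without overlap, called list members, up to 3 members of smallest p in lists with fewer than 3 calls, and genes the study names for liver. Others were chosen after their values were seen, as *Scd1*, *Hspa1a*, *Vnn1* as a PPARα-responsive gene, and members named as examples. The lists and the comparison were chosen with earlier results of these data known. Of the called genes this rule takes, 1 is not reported here, and of members that missed the threshold only some are named. Alternatives were quantile normalization, equal array medians, a trended and robust prior, array weights, dim genes (mean log2 value below 4) left out, the methods' t-test, a block for mouse numbers, a false discovery rate of 0.10, and each array left out. Promoters are RefSeq's (GRCm38.p6). Figures were drawn with matplotlib 3.10.9.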

Additional observations from a re-analysis of the deposited data

Results flagged for a closer look

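Among the genes named, 13 of 210 groups of 4 mice held 1 mouse far from the other 3, where chance alone gives about 1 in 20. *Cyp7a1* stood low in wild-type replicate 2, at 7.32, and high in knockout replicate 2, at 10.46. Knockout replicate 2 was also high for *Cyp4a14* (9.56), *Cdh5* (5.45) and *Oasl1* (5.56). Wild-type replicate 1 was low for *Cd36* (7.57), *Dnase1l3* (5.41) and *Oit3* (5.38) and stood apart for *Lbp* (9.04). The others were *Dnajb1* in knockout replicate 3 (4.84), *Pex11a* in wild-type replicate 3 (7.65), *Spred1* in knockout replicate 4 (3.85) and *Scd1* in knockout replicate 3 (9.80).

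Some genes lay wholly on one side of the wild type in liver and wholly on the other side in a fat depot, and these differences between tissues were not tested. Lower in liver and higher in eWAT, with the log2 fold change in eWAT, were *Cfd* (2.32), *Acss3* (1.56), *Plin4* (0.99), *Pex11a* (0.83), *Eci1* (0.61), *Pparg* (0.61), *Cidec* (0.30) and *Cyp4a12a* (0.25). *Cfd* was also higher in iWAT (0.83) and BAT (0.49), *Acss3* in BAT (0.62) and *Acadl* in iWAT (0.60). Higher in liver and lower in fat were *Atp6v0d2* (-3.44 in eWAT and -2.01 in iWAT), *Camk1d* (-1.02 in eWAT), *Adrb3* (-0.89 in BAT) and *Oasl1* (-0.73 in eWAT).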

How the results depend on the processing

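Quantile normalization, equal array medians, a trended and robust prior, array weights and leaving out dim genes called 156 to 233 genes in place of 163, and 61 in place of 40 were higher with dim genes left out. At a false discovery rate of 0.10 the counts were 405, with 122 higher and 283 lower. The methods' t-test, without moderated variances, called 2901 genes unadjusted (1357 higher, 1544 lower) and 2 after adjustment (1 higher, 1 lower, and 100% of these called in eWAT too). Unadjusted it called 20 heat shock, 12 matrix and 9 stellate genes, and after adjustment 0 of the heat shock, matrix, endothelial and stellate lists. When single arrays were dropped, the count ranged from 41 to 300 (8 to 58 higher, 33 to 242 lower), the share also called in eWAT from 31.8% to 43.3%, and the list counts from 3 to 7 for heat shock, 0 to 10 for matrix, 2 to 11 for endothelium and 0 to 7 for stellate cells. With the trended and robust prior 56 of the 61 named genes kept their call, and *Cyp7a1*, *Cidec*, *Hsph1*, *Ecm1* and *Cyp4a14* lost it. No named gene past the threshold changed direction under any of these alternatives. The labels do not say that mouse numbers mark pairs or litters. Deviations of same-numbered mice correlated with r between -0.057 and 0.106, and of differently numbered mice between -0.102 and 0.085. Such low values cannot decide whether the numbers pair mice. With the replicate block 189 genes were called, 8 of the matrix list and 10 of the cholesterol list, and 53 of the 61 named genes kept their call. The cause of these shifts was not tested. Dim genes have the least signal over background, and their values have no known floor.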
